A study of Mus musculus with 9 samples.

Results

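Genes that mark cardiac fibroblasts, at rest or after activation, were followed by their messenger RNA in whole mouse hearts. The set held 34 of the 43154 genes listed for each heart, chosen by symbol from outside the collagens and other matrix families, and every symbol was found. They were sorted by what the genes are known for: 17 mark resting fibroblasts, 8 mark activated ones, and 9 are shared by both states. Hearts of C57BL/6 mice formed 3 groups: 4 wild type hearts given vehicle, 3 hearts of calcineurin transgenic mice given vehicle, and 2 hearts of the same transgenic line given JIB-04. JIB-04 is a small molecule that inhibits Jumonji demethylases, enzymes that remove methyl groups from histones. It was given at 50 mg/kg, 3 times a week, and dosing began when mice were 4 weeks old. The MHC-CnATg line carries calcineurin A, a calcium-dependent phosphatase that drives cardiac growth, under the α-myosin heavy chain promoter, which is active in cardiomyocytes rather than in fibroblasts. Hearts were taken at postnatal day 125 (wild type hearts 1 and 2, transgenic vehicle heart 1, JIB-04 heart 1) or day 158 (all others), by the hearts' own labels. The design text of the series has dosing go on up to day 158, and how the earlier hearts fit that schedule is not given in the sources used here. Wild type hearts given JIB-04 were not analysed here, and 2 JIB-04 hearts, 1 on each day, limit what that group can show.

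Fibroblasts lie between the cardiomyocytes and make and turn over the collagen-rich matrix of the heart. At rest they are recognised by the receptor Pdgfra, the transcription factor Tcf21 and a set of secreted matrix-binding proteins. Under load or injury, signals such as TGF-β move them towards an activated state, in which transcription factors such as Meox1 and Twist1, the oxidase Nox4, the surface protease Fap and secreted proteins such as Cthrc1 are known to appear. In RNA of a whole heart, fewer cells of a type and less RNA per cell cannot be told apart, so every level below is a level in the heart and not in a fibroblast.

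The unit is FPKM, a read count scaled for the length of the gene and the size of the library. Ppp3ca, which encodes the catalytic subunit of calcineurin A, checked the labels: it lay between 22.9 and 24.8 FPKM in wild type hearts and between 1434 and 1762 in 4 of the 5 transgenic hearts. Transgenic vehicle heart 3 stood apart with 199 FPKM, still above every wild type heart, and results that rest on it are also given without it. The mitochondrial share of the summed FPKM ran from 10% to 30.9%. Estimated from the steps between low values, the hearts differed up to 1.49-fold in sequencing depth. Each mouse gave 1 heart, so the spread below is between animals.

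In wild type hearts the resting markers held most of the signal. Gsn, which encodes the actin-severing protein gelsolin, ranked first with 388 ± 44.1 FPKM (SD, n = 4), and Mgp, matrix Gla protein, an inhibitor of calcification, ranked second with 304 ± 42.9. Ly6a, the stem cell antigen Sca-1, followed with 120.0 ± 18.1 FPKM. Htra1, a secreted serine protease classed here with the activated genes, came next with 63.2 ± 7.05 FPKM and overlapped with Clec3b (58.5 ± 6.00 FPKM), which encodes tetranectin. From Gsn down to Htra1 the hearts of neighbouring genes did not overlap, whereas in 27 of the 33 neighbouring pairs of the whole wild type order they did. Most other activation genes lay at the bottom of that order: Fap at 2.04 ± 0.542 FPKM, Mfap2 at 1.5 ± 0.342, Twist1 at 1.0 ± 0.219 and Nox4 at 0.234 ± 0.123, with Cthrc1 last. In transgenic vehicle hearts Mgp ranked first and Gsn second, with overlapping hearts. Pi16 moved from rank 11 to rank 5, Meox1 from 24 to 14, Fibin from 22 to 13 and Svep1 from 29 to 21, while Htra1 moved from rank 4 to 15, Clec3b from 5 to 12, Prrx1 from 14 to 22 and Scara5 from 16 to 29. Ranks describe these hearts and were not tested.

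**Figure D1:**
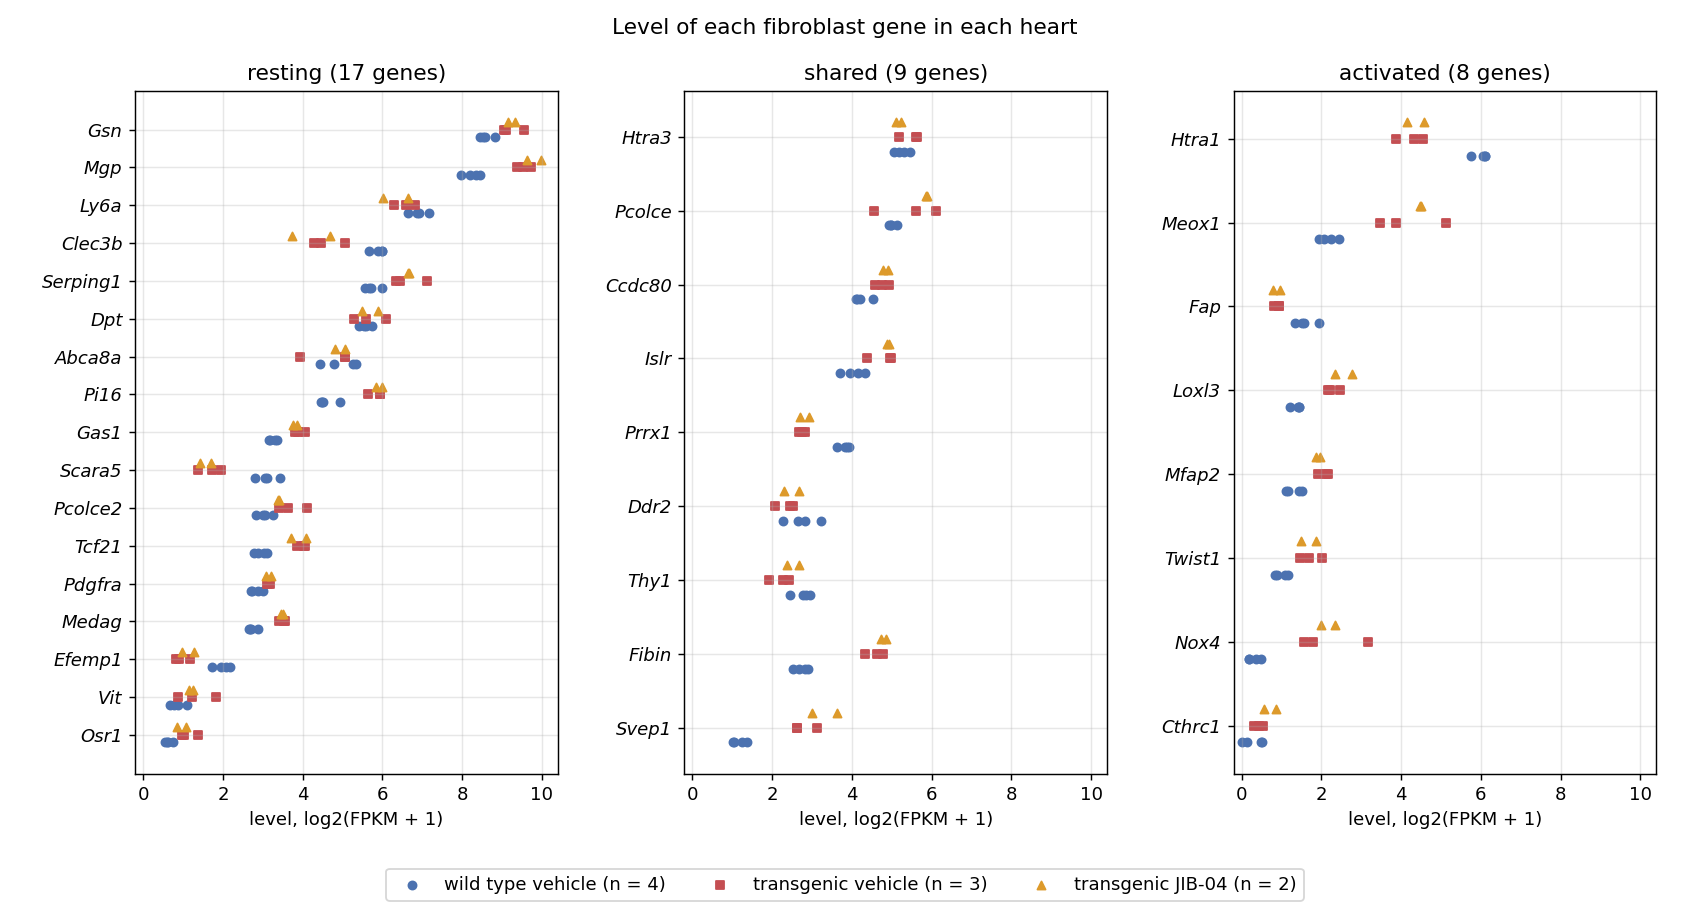
Level of each of the 34 genes in each of the 9 hearts, as log2(FPKM + 1) on the horizontal axis, with genes on the vertical axis sorted by their wild type level within the resting, shared and activated genes. Circles are wild type vehicle hearts (n = 4), squares transgenic vehicle hearts (n = 3) and triangles JIB-04 hearts (n = 2); for Fibin and Svep1 every transgenic heart lies to the right of every wild type heart, and for Htra1, Prrx1 and Clec3b every one lies to the left.

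The first comparison asked how the transgene altered these genes, with transgenic vehicle hearts set against wild type vehicle hearts. Of 33 tested genes (Cthrc1 was too low), 19 rose, 7 fell and 7 did not pass the test (limma on log2(FPKM + 1) over all 9 hearts, Benjamini-Hochberg adjusted p under 0.05). Among all 13487 tested genes the same rule called 36.0%, with 20.3% called higher and 15.7% called lower. Resting genes moved in both directions, with 10 higher, 3 lower and 4 not called of 17, and a median difference of 0.48 on the log2 scale. Shared genes gave 4 higher, 2 lower and 3 not called of 9, with a median of 0.45. Of the 7 tested activation genes 5 rose and 2 fell, with a median of 0.75, and the median over all tested genes was 0.05. Osr1 and Nox4 reached the level needed for testing in transgenic hearts alone and Fap in wild type hearts alone, so their selection favoured a difference. Without these 3 the counts were 17 higher and 6 lower. Among the called genes 7 were higher and 5 lower by at least 1 on the log2(FPKM + 1) scale, and the ratio of the mean FPKM was at least 2-fold for 11 higher and 6 lower genes. Scaling every heart to an equal total shifted the median of all genes to 0.23 and the calls over all genes from 2739 higher and 2123 lower to 4504 and 1006, whereas the members stood at 20 higher and 6 lower. Without transgenic vehicle heart 3 the members stood at 18 higher and 8 lower.

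All 5 transgenic hearts, treated or not, lay above all 4 wild type hearts for 19 of the 34 genes, against 20.4% of all tested genes. They lay below for 6 genes, against 15.3%, and 9 genes were not separated. Of the 33 tested genes, transgenic vehicle hearts alone lay wholly above wild type hearts for 19 and wholly below for 7, against 23.4% and 17.7% of all tested genes. Both sets of counts, and those by role, include Osr1 and Nox4 as higher and Fap as lower, whose selection favoured a difference. By role, the transcription factors gave 4 rises (Tcf21, Osr1, Meox1, Twist1) and 1 fall (Prrx1). The 9 surface proteins and receptors gave 3 rises (Pdgfra, Gas1, Nox4) and 3 falls (Scara5, Thy1, Fap). Of the 18 tested secreted or matrix-associated proteins 11 rose and 3 fell (Clec3b, Efemp1, Htra1). Exons of 9 members share positions with another annotated gene (Pdgfra, Gas1, Pi16, Medag, Ddr2, Pcolce, Islr, Svep1 and Loxl3). The libraries keep no strand, so reads of a member and an antisense partner cannot be told apart there. For Medag and Islr the partner lies on the same strand, and Pdgfra and Pcolce have partners on both strands.

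**Figure D2:**
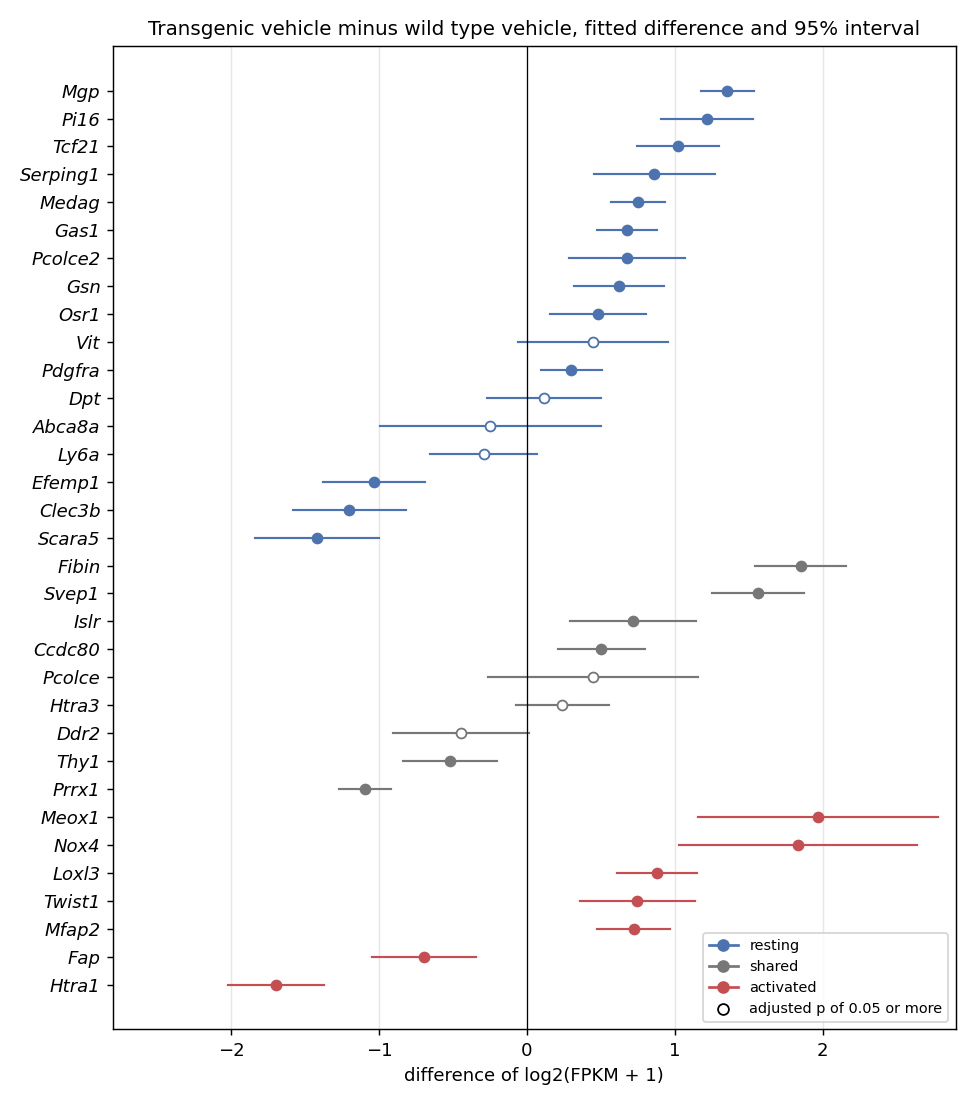
Fitted difference between transgenic vehicle (n = 3) and wild type vehicle hearts (n = 4) on the log2(FPKM + 1) scale for the 33 tested genes, grouped as resting, shared and activated on the vertical axis. Points are limma estimates, lines their 95% intervals, and open points have an adjusted p of 0.05 or more; the differences run from -1.70 for Htra1 to 1.97 for Meox1, and each of the 3 groups has genes on both sides of 0.

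Upstream sequence is shown for the genes that moved most in either direction, the 3 with the largest rise and the 3 with the largest fall among called members with exactly 1 promoter entry in the RefSeq table (build GRCm38.p6), which matched 21 of the 34 genes. Each run holds the 250 bases before RefSeq's transcription start, 5′ to 3′ on the gene's strand. Capitals mark matches, on either strand, to any of 6 motifs. The TEAD motif was read as GGAATG, and the AP-1 motif as TGANTCA, where N is any base. The SMAD motif was read as GTCTAG, and the E-box bound by Tcf21 as CAGCTG. The NFAT motif, of the factors that calcineurin activates, was read as GGAAAA, and the TATA box as TATAAA.
Fibin (chr2:110362994-110363243, minus strand): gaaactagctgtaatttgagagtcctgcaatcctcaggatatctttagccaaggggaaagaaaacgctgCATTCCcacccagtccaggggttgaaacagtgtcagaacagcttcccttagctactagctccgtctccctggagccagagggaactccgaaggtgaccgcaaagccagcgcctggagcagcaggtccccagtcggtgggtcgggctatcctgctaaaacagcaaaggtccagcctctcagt
Nox4 (chr7:87246399-87246648, plus strand): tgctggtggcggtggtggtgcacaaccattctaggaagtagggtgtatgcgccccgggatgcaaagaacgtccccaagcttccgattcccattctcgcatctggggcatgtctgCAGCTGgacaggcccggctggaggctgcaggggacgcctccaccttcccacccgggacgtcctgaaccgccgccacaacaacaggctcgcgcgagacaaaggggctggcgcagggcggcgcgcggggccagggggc
Svep1 (chr4:58206597-58206846, minus strand): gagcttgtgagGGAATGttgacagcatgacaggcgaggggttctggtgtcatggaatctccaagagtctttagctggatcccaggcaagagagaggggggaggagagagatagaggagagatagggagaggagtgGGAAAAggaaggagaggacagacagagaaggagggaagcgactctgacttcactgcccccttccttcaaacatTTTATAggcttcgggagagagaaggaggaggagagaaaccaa
Htra1 (chr7:130935953-130936202, plus strand): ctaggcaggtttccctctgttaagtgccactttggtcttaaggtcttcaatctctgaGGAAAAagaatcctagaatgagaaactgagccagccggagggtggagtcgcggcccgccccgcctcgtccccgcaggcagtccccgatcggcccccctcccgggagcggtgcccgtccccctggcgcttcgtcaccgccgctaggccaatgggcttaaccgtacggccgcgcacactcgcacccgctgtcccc
Prrx1 (chr1:163313651-163313900, minus strand): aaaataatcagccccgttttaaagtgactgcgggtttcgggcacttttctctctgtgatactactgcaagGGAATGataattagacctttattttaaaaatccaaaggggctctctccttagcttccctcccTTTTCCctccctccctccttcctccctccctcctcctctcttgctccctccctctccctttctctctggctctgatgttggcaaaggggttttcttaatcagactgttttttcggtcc
Efemp1 (chr11:28852955-28853204, plus strand): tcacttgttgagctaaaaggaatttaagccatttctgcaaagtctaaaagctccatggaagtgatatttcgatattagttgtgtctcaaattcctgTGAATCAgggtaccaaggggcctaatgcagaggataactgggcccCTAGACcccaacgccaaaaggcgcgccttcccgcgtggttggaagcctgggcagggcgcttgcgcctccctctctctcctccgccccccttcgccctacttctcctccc
Fibin, Nox4 and Svep1 rose, whereas Htra1, Prrx1 and Efemp1 fell. The TEAD letters stood in Fibin and Svep1, which rose, and also in Prrx1, which fell, and the NFAT letters stood in Svep1, Htra1 and Prrx1. Svep1 alone of the 6 held the TATA letters, 42 to 37 bases before the start. None of the marked matches overlap. Over all 32851 promoter windows of this length, 12.6% held the TEAD letters, 6.75% AP-1, 7.11% SMAD, 13% the E-box, 20.4% NFAT and 12.4% TATA. Among the 25 windows of the 21 member genes 5, 1, 4, 8, 7 and 3 held them, in the same order. Counted by gene these were 5, 1, 3, 7, 7 and 3 of the 21. A match is a description of these letters, not of a bound site, and the deposited loci begin at other positions than RefSeq's starts for several of these genes. The windows of Svep1 and Nox4 lie wholly inside the deposited loci, with all their marked matches. Those of Fibin, Htra1 and Prrx1 lie partly inside.

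Among the transcription factors of resting fibroblasts, Tcf21 and Osr1 rose. Tcf21, a basic helix-loop-helix factor needed for fibroblasts to form from the epicardium (chr10:22817279-22820128), lay at 6.39, 5.83, 7.23 and 7.57 FPKM in the 4 wild type hearts, 13.6, 15.7 and 15.3 in the 3 transgenic vehicle hearts and 16.0 and 12 in the 2 JIB-04 hearts. The 5 transgenic hearts were all higher than the wild type hearts, and the difference was 1.02 ± 0.12 on the log2 scale (SE, adjusted p = 0.00052). Osr1, a zinc finger factor of mesenchymal progenitors, stayed near the lower limit, from 0.451 to 0.672 FPKM in the wild type and from 0.964 to 1.59 in transgenic vehicle hearts, a difference of 0.48 ± 0.14 (adjusted p = 0.03) in a gene that passed the filter through its transgenic hearts alone. That call was lost without transgenic vehicle heart 1 (adjusted p = 0.073) or 3 (0.068) and without wild type heart 2 (0.057), 3 (0.087) or 4 (0.077).

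The surface proteins of resting fibroblasts split. Scara5, a scavenger receptor that takes up ferritin (chr14:65666403-65764826), had 7.38, 5.94, 9.74 and 7.58 FPKM in wild type hearts, 2.32, 1.61 and 2.84 in transgenic vehicle hearts and 2.25 and 1.71 with JIB-04. The groups did not overlap, and Scara5 fell by 1.42 ± 0.18 on the log2 scale (adjusted p = 0.00076). Pdgfra, the PDGF receptor that defines the lineage, rose by only 0.30 ± 0.09 (adjusted p = 0.033), from 5.52 to 7.0 FPKM in wild type to 7.60 to 8.05 in transgenic vehicle hearts. Its call did not survive the loss of transgenic vehicle heart 1 (adjusted p = 0.15) or 3 (0.056) or of wild type heart 1 (0.075), 2 (0.075) or 4 (0.076). Gas1, a membrane-anchored co-receptor for hedgehog ligands, rose by 0.68 ± 0.09 (adjusted p = 0.00087), with 7.88 to 9.25 FPKM in the wild type and 13 to 15.7 in transgenic vehicle hearts.

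Ly6a and Abca8a, a lipid transporter, did not pass the test. Ly6a lay at 121, 143, 116 and 99.4 FPKM in wild type hearts, 95.8, 76.8 and 112 in transgenic vehicle hearts and 99.0 and 64.2 in JIB-04 hearts, a difference of -0.29 with a 95% interval of -0.65 to 0.07. Wild type and transgenic hearts overlapped, and without transgenic vehicle heart 3 Ly6a was called lower (-0.47, adjusted p = 0.015). Abca8a lay at 37.6, 20.8, 26.4 and 39.4 FPKM in wild type hearts, 32.5, 32.3 and 14.2 in transgenic vehicle and 32.7 and 26.9 in JIB-04 hearts, with an interval of -1.0 to 0.50. Transgenic vehicle heart 3 was the lowest of all 9 hearts for Abca8a, and without it the estimate changed sign to 0.11 (adjusted p = 0.77).

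Secreted proteins of resting fibroblasts held both the firmest rise and marked falls. Mgp (chr6:136872436-136875805) lay at 327, 348, 292 and 249.6 FPKM in wild type hearts, 845, 737 and 668 in transgenic vehicle hearts and 1013 and 792 in JIB-04 hearts. All 5 transgenic hearts were higher than any wild type heart, and the difference was 1.36 ± 0.08 (adjusted p = 1.7e-05). Pi16, a peptidase inhibitor that marks a reserve population of fibroblasts (chr17:29318877-29329413), lay at 20.9, 21.4, 29.8 and 21.9 FPKM in wild type hearts, 60.6, 60.0 and 48.8 in transgenic vehicle and 56.7 and 62.9 in JIB-04 hearts. Pi16 rose by 1.22 ± 0.14 (adjusted p = 0.00039) with no overlap, although wild type heart 3 lay above the other wild type hearts. Clec3b (chr9:123150946-123157430) went the other way, from 58.9, 62.7, 62.5 and 49.9 FPKM in wild type to 32.2, 18.6 and 21.2 in transgenic vehicle and 24.7 and 12.3 in JIB-04 hearts. It fell by 1.2 ± 0.17 (adjusted p = 0.0011), again with no overlap. Efemp1, the elastic fibre protein fibulin-3 (chr11:28853204-28926743), lay at 2.31, 2.86, 3.25 and 3.52 FPKM in wild type hearts, 0.867, 0.760 and 1.26 in transgenic vehicle and 1.41 and 0.953 in JIB-04 hearts. It fell by 1.04 ± 0.15 (adjusted p = 0.0014), and its lowest wild type heart stayed above the highest transgenic one.

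The remaining resting genes that passed the test, 3 secreted proteins and Medag, all rose. Gsn rose by 0.62 ± 0.13 (adjusted p = 0.0078), from 351 to 452 FPKM in wild type to 532 to 757 in transgenic vehicle hearts. Serping1, the inhibitor of complement C1, rose by 0.86 ± 0.18 (adjusted p = 0.0071), and transgenic vehicle heart 3 was its highest heart at 137 FPKM. Pcolce2, which enhances the cleavage of procollagen C-propeptides, rose by 0.68 ± 0.17 (adjusted p = 0.017), a call lost without transgenic vehicle heart 1 (adjusted p = 0.057) and without wild type heart 4 (0.056). Medag, named for its part in adipocyte development and of less settled function in the heart, rose by 0.75 ± 0.08 (adjusted p = 0.0003) with 5.27 to 6.39 FPKM in the wild type and 9.62 to 10.7 in transgenic vehicle hearts.

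Dermatopontin (Dpt), a small protein that binds decorin and collagen and is expressed by fibroblasts of many tissues, did not pass the test. It lay at 47.2, 41.9, 52.9 and 45.4 FPKM in wild type hearts, 66.8, 47.1 and 38.4 in transgenic vehicle and 58.1 and 44.3 in JIB-04 hearts, a difference of 0.12 with an interval of -0.27 to 0.50. The transgenic vehicle hearts spanned the whole wild type range, with heart 1 above it and heart 3 below. Without transgenic vehicle heart 1 the estimate was -0.12 (adjusted p = 0.65). Vit, the matrix protein vitrin, lay between 0.596 and 1.13 FPKM in the wild type and between 0.847 and 2.56 in transgenic vehicle hearts, which overlapped. Vit was called higher without transgenic vehicle heart 2 (0.68, adjusted p = 0.026) and not in the full set (0.45, adjusted p = 0.15).

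Genes shared by resting and activated fibroblasts included the 2 largest rises among the secreted members and the only fall among the transcription factor members. Fibin, a secreted protein first described in fin bud development (chr2:110360917-110363183), lay at 6.41, 4.76, 6.13 and 5.33 FPKM in wild type hearts, 23.7, 19.2 and 26.7 in transgenic vehicle and 25.5 and 28.1 in JIB-04 hearts. It rose by 1.85 ± 0.13 (adjusted p = 5.2e-05), and the lowest transgenic heart was far above the highest wild type heart. Svep1, a large extracellular protein with sushi and EGF-like domains that binds integrin α9β1 (chr4:58042442-58206859), lay at 1.04, 1.07, 1.60 and 1.35 FPKM in wild type hearts, 5.20, 7.68 and 5.19 in transgenic vehicle and 7.04 and 11.3 in JIB-04 hearts. It rose by 1.56 ± 0.14 (adjusted p = 0.00012) with no overlap. Prrx1, a homeobox factor of mesenchymal cells (chr1:163245119-163313710), lay at 11.4, 13.1, 13.7 and 14.3 FPKM in wild type hearts, 5.40, 6.09 and 5.71 in transgenic vehicle and 5.52 and 6.66 in JIB-04 hearts. It fell by 1.10 ± 0.08 (adjusted p = 4.2e-05), and the 5 transgenic hearts lay within a narrow band below all wild type hearts. Tcf21 and Prrx1, both factors of fibroblast identity, thus moved in opposite directions in the same hearts.

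Islr, an immunoglobulin-like leucine-rich repeat protein also called meflin, lay at 14.6, 12.1, 19.0 and 16.8 FPKM in wild type hearts, 29.8, 30.6 and 19.8 in transgenic vehicle and 29.5 and 28.3 in JIB-04 hearts. It rose by 0.72 ± 0.19 (adjusted p = 0.018), but transgenic vehicle heart 3 was only just above wild type heart 3, and the call was lost without transgenic vehicle heart 1 (adjusted p = 0.12) or 2 (0.054). Ccdc80, a secreted matrix-associated protein, lay at 17.4, 16.6, 22 and 16.3 FPKM in wild type hearts, 29.3, 22.9 and 26.0 in transgenic vehicle and 26.5 and 28.9 in JIB-04 hearts. It rose by 0.50 ± 0.13 (adjusted p = 0.017), with the lowest transgenic heart close to the highest wild type heart, and was not called without transgenic vehicle heart 1 (adjusted p = 0.11) and without wild type heart 4 (0.058). Thy1, the glycoprotein CD90, lay at 6.18, 6.71, 4.48 and 5.88 FPKM in wild type hearts, 3.83, 4.33 and 2.76 in transgenic vehicle and 5.39 and 4.17 in JIB-04 hearts. It fell by 0.52 ± 0.14 (adjusted p = 0.021), and the JIB-04 hearts overlapped with the wild type hearts. That fall was not called without transgenic vehicle heart 1 (adjusted p = 0.11) and without wild type heart 4 (0.069), nor when hearts were scaled to equal totals (-0.33, adjusted p = 0.14).

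Ddr2, Pcolce and Htra3 did not pass the test. Ddr2, a receptor for fibrillar collagen, lay at 5.27, 3.83, 6.07 and 8.41 FPKM in the wild type hearts and 4.46, 4.76 and 3.17 in transgenic vehicle hearts, with 3.90 and 5.41 under JIB-04, and its groups overlapped (interval -0.91 to 0.01). Without transgenic vehicle heart 1 it was called lower (-0.70, adjusted p = 0.049). Pcolce, the first procollagen C-proteinase enhancer, lay at 34.4, 30.8, 30.5 and 29.4 FPKM in wild type hearts, 48.2, 68.5 and 22.7 in transgenic vehicle and 56.9 and 57.9 in JIB-04 hearts. Here 4 of the 5 transgenic hearts lay above all wild type hearts, and transgenic vehicle heart 3, the heart with low Ppp3ca, lay below them all. The difference was 0.45 with an interval of -0.26 to 1.16, and without that heart Pcolce was called higher (0.86, adjusted p = 0.0022). Htra3, a secreted serine protease related to Htra1, lay at 38.6, 35.0, 43.3 and 32.3 FPKM in wild type hearts, 47.5, 35.6 and 48.8 in transgenic vehicle and 36.5 and 33.7 in JIB-04 hearts, which overlapped (interval -0.08 to 0.55). It was called higher only when hearts were scaled to equal totals (0.46, adjusted p = 0.025).

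Activation genes did not move as a block. Meox1, a homeobox factor that drives activation genes in stressed fibroblasts (chr11:101877510-101894374), lay at 3.20, 4.45, 2.85 and 3.71 FPKM in wild type hearts, 13.6, 34 and 10.1 in transgenic vehicle and 21.3 and 21.5 in JIB-04 hearts. It rose by 1.97 ± 0.35 (adjusted p = 0.0038), the largest difference among the 33 tested genes on the log2(FPKM + 1) scale, with no overlap but a wide spread, since transgenic vehicle heart 2 stood well above hearts 1 and 3. Nox4, an NADPH oxidase that makes hydrogen peroxide (chr7:87246096-87398710), lay at 0.391, 0.145, 0.127 and 0.273 FPKM in wild type hearts, 2.44, 1.94 and 8.04 in transgenic vehicle and 2.99 and 4.11 in JIB-04 hearts. All wild type hearts were below 1 FPKM and all transgenic hearts above it, with transgenic vehicle heart 3 the highest. Its difference of 1.84 ± 0.35 (adjusted p = 0.005) is on the log2(FPKM + 1) scale, which understates the change of a gene so low in wild type hearts, and Nox4 passed the filter through its transgenic hearts alone. The ratio of the mean FPKM was 17.7, and 9.36 without heart 3, beside 5.41 for Meox1. With a pseudocount of 0.1 the difference of Nox4 (3.42) exceeded that of Meox1 (2.21), as it did with 0.5 (2.40 against 2.10). Loxl3, an enzyme of the lysyl oxidase family that cross-links collagen, lay at 1.71, 1.33, 1.70 and 1.68 FPKM in wild type hearts, 3.66, 4.56 and 3.47 in transgenic vehicle and 4.11 and 5.82 in JIB-04 hearts. It rose by 0.88 ± 0.12 (adjusted p = 0.00097), with no overlap.

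Twist1, a basic helix-loop-helix factor of mesenchymal cells, lay at 1.24, 1.12, 0.775 and 0.861 FPKM in wild type hearts, 1.76, 3.08 and 2.21 in transgenic vehicle and 2.64 and 1.82 in JIB-04 hearts. The groups did not overlap, and Twist1 rose by 0.75 ± 0.17 (adjusted p = 0.01). Mfap2, a component of the microfibrils that carry elastin and latent TGF-β, lay at 1.17, 1.25, 1.87 and 1.71 FPKM in wild type hearts, 2.78, 3.47 and 3.35 in transgenic vehicle and 2.92 and 2.65 in JIB-04 hearts. It rose by 0.72 ± 0.11 (adjusted p = 0.0016), also with no overlap. Htra1 (chr7:130936111-130985660) was by far the most abundant activation gene in wild type hearts and the one that fell most, from 67.5, 64.9, 52.8 and 67.7 FPKM to 22.5, 19.1 and 13.5 in transgenic vehicle and 23.0 and 16.7 in JIB-04 hearts. It fell by 1.70 ± 0.14 on the log2 scale (adjusted p = 0.0001), and every transgenic heart had less than every wild type heart. Fap, fibroblast activation protein, a surface protease widely used as a marker of activated cardiac fibroblasts, also fell, and passed the filter through its wild type hearts alone. It lay at 2.81, 1.53, 1.87 and 1.95 FPKM in wild type hearts, 0.751, 0.924 and 0.924 in transgenic vehicle and 0.717 and 0.952 in JIB-04 hearts, and it fell by 0.70 ± 0.15 (adjusted p = 0.0094). All transgenic hearts were below 1 FPKM and below all wild type hearts, and the call was lost without transgenic vehicle heart 1 (adjusted p = 0.056). Cthrc1, a secreted protein of collagen-producing fibroblasts, lay at 0.395, 0.0981, 0 and 0.431 FPKM in wild type hearts (listed at 0 in heart 3), 0.229, 0.442 and 0.348 in transgenic vehicle and 0.483 and 0.820 in JIB-04 hearts, too low to be tested.

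**Figure D3:**
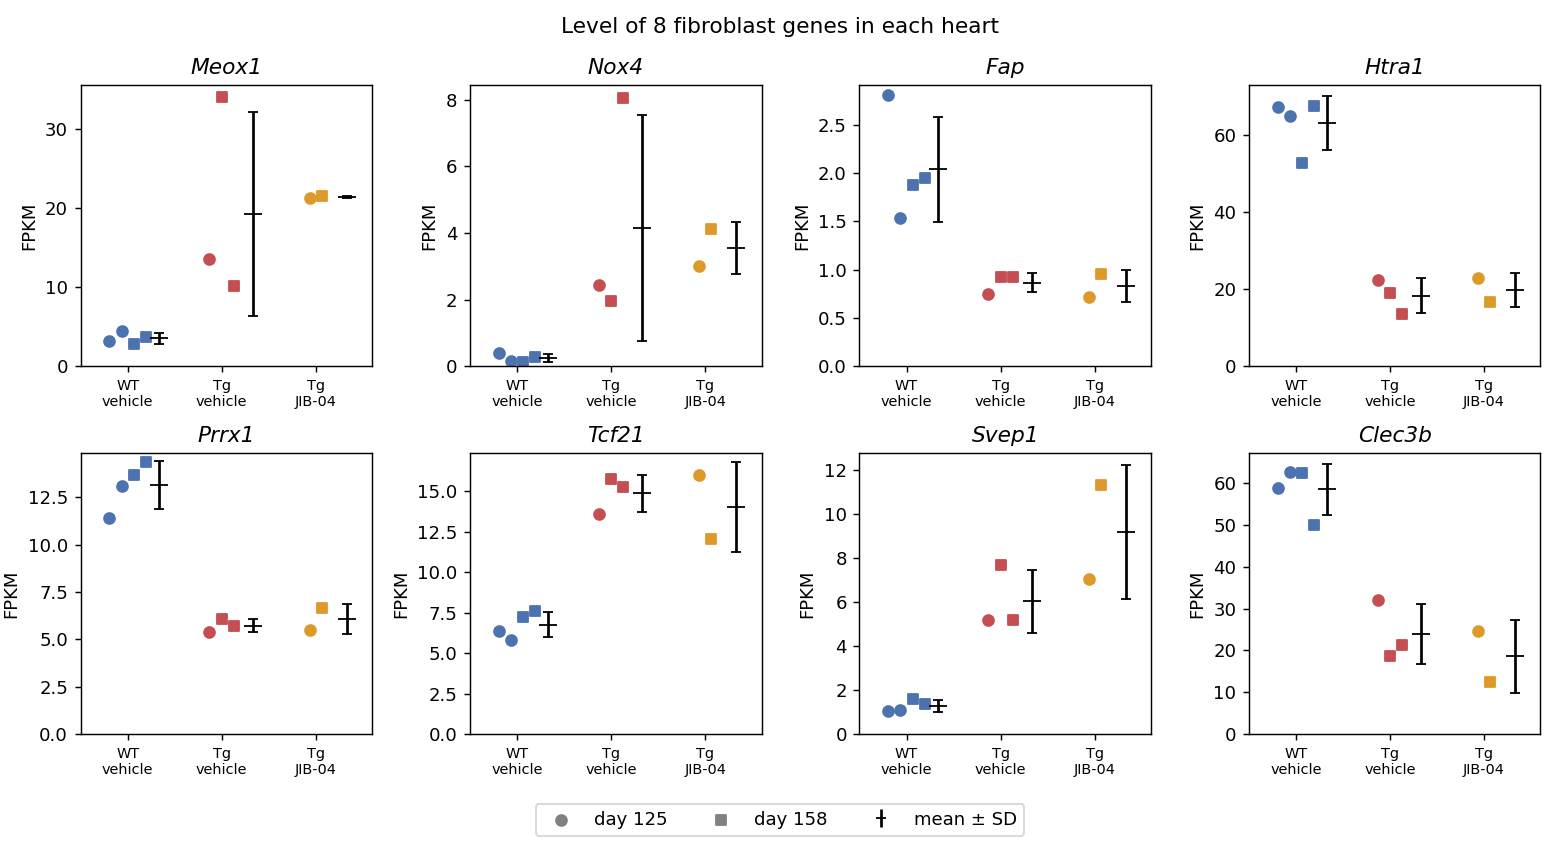
FPKM of 8 genes in each heart (vertical axis, from 0) by group, with circles for day 125, squares for day 158, and bars for the mean ± SD. Meox1 and Nox4 are higher in every transgenic heart than in any wild type heart, with 1 transgenic vehicle heart standing above the rest for each, whereas Fap, Htra1, Prrx1 and Clec3b are lower in all 5 transgenic hearts.

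Calls differed in how much they depended on single hearts and on processing. Genes too low for the stricter filter on level, among them Efemp1 and Loxl3, had 21 alternatives in place of 22. For 12 of the 26 called genes every one of the 21 or 22 alternatives kept the call: Scara5, Tcf21, Pi16, Mgp, Clec3b, Efemp1 and Medag among resting genes, Prrx1, Svep1 and Fibin among shared genes, and Htra1 and Loxl3 among activation genes. Another 6 lost it in the day 158 hearts alone, where 2 transgenic vehicle hearts met 2 wild type hearts: Gas1 (adjusted p = 0.06), Gsn (0.1), Serping1 (0.09), Nox4 (0.077), Meox1 (0.073) and Mfap2 (0.054). Of the remaining 8 calls, 7 were lost without single hearts, as given above, and in day 158 hearts alone, and that of Twist1 was not. With the replicate number as a block the calls of Pdgfra (adjusted p = 0.13), Osr1 (0.17), Thy1 (0.07), Islr (0.15), Ccdc80 (0.12) and Twist1 (0.12) were lost. With no filter on low values, which adds genes to the adjustment, those of Pdgfra (adjusted p = 0.056), Pcolce2 (0.056), Thy1 (0.061) and Islr (0.061) were lost. Quantile normalization ended the calls of Pdgfra (adjusted p = 0.076) and Osr1 (0.051), and scaling by the median of ratios that of Pdgfra (0.058). Within each day all 26 called genes kept the sign of their difference, with 1 transgenic vehicle heart at day 125. For all 26 the hearts of the 2 groups did not overlap, so this sign was fixed in advance and is no further check.

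The second comparison asked what JIB-04 did in transgenic hearts. No member passed the test between JIB-04 and transgenic vehicle hearts (limma, 0 of 33, lowest adjusted p = 0.987), where 0.00741% of all tested genes passed, which is 1 gene of 13487. At an unadjusted p under 0.05, 2 of 33 members were found, Svep1 and Clec3b, and no other tool was run. The share of all tested genes at that unadjusted level was not counted, so these 2 are described only. Svep1, already raised by the transgene, differed by 0.58 on the log2 scale (95% interval 0.21 to 0.95), and JIB-04 heart 1 overlapped with transgenic vehicle heart 2. Clec3b, already lowered, differed by -0.47 (-0.93 to -0.02), and JIB-04 heart 1 lay within the transgenic vehicle range. For both, the estimate pointed further from the wild type level and not back towards it. Mgp differed by 0.21 (-0.00 to 0.42) and Loxl3 by 0.30 (-0.02 to 0.63). Htra3 differed by -0.32 (-0.69 to 0.06) and Pcolce2 by -0.32 (-0.79 to 0.15). Pcolce2 was the only member whose JIB-04 hearts (9.64 and 9.37 FPKM) both lay below all transgenic vehicle hearts (11.4, 9.65 and 16.2 FPKM), against 6.88% of all genes, and by a margin within the digits shown. No member had both JIB-04 hearts above all transgenic vehicle hearts, against 5.55% of all genes.

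Median differences between JIB-04 and vehicle were 0.04 over all members, 0.00 for resting, 0.19 for shared and 0.04 for activation genes, beside -0.01 over all tested genes. Among the shared genes, transgenic vehicle heart 3 was the lowest vehicle heart for Ddr2, Thy1, Pcolce, Islr and Svep1. It was the highest for Htra3 and Fibin. These medians were not taken without that heart. With 2 treated hearts the intervals reached between 0.21 and 0.97 to either side of the estimate, with a median of 0.39. For 29 of the 33 genes the interval lay between -1 and 1 on the log2(FPKM + 1) scale. That scale understates a change in low genes, so for them this is no 2-fold limit on FPKM. Smaller effects of JIB-04 could not be detected at this number of hearts.

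**Figure D4:**
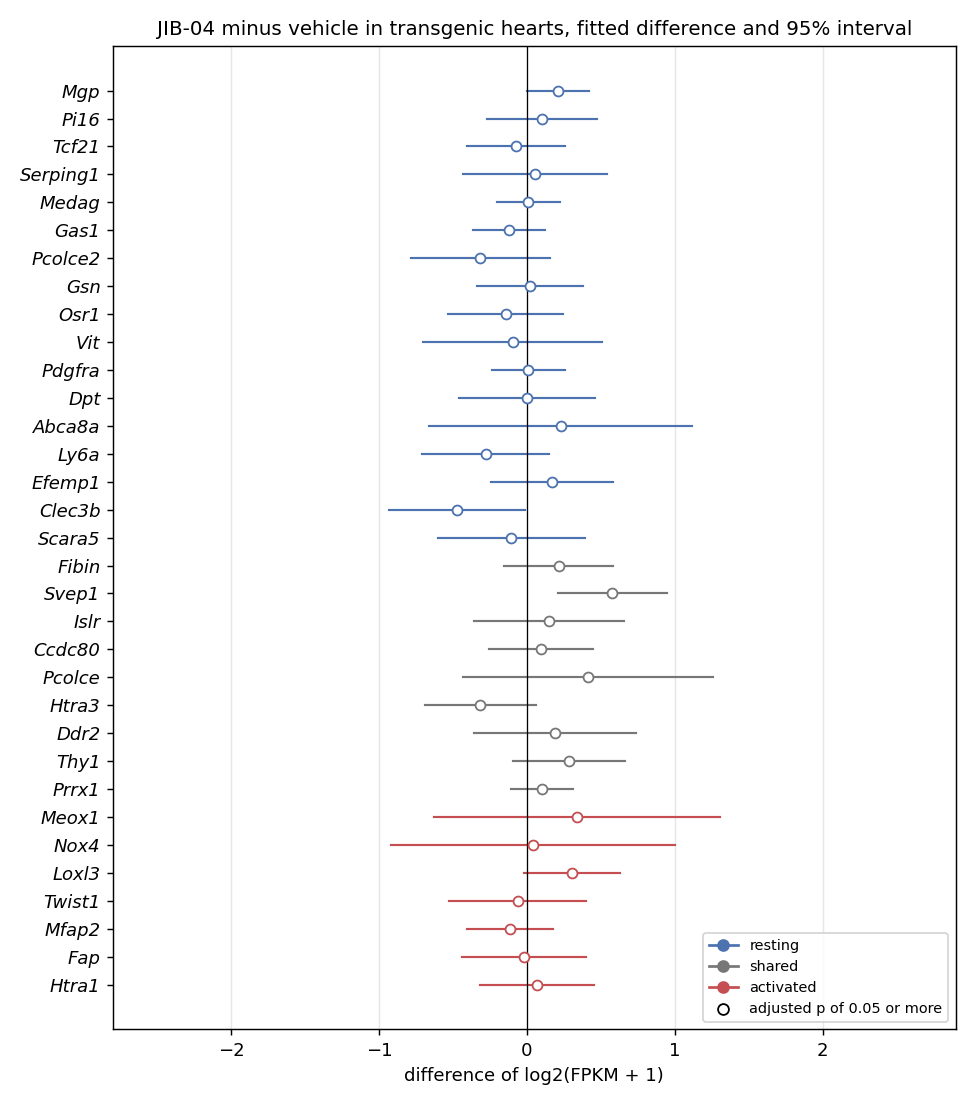
Fitted difference between JIB-04 (n = 2) and vehicle (n = 3) in transgenic hearts on the log2(FPKM + 1) scale, for the same 33 genes, in the same order and with the same horizontal axis as in the plot of the transgene's effect. Points are limma estimates and lines their 95% intervals; all points are open because no gene had an adjusted p under 0.05, and estimates run from -0.47 for Clec3b to 0.58 for Svep1.

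JIB-04 hearts were also set against wild type hearts, which they share with the first comparison as controls. Here 17 members were higher and 7 lower of 33 (limma, adjusted p under 0.05), where 17.4% of all tested genes were higher and 14.8% lower. Resting genes gave 8 higher and 4 lower, shared genes 4 and 1, and activation genes 5 and 2. The same direction was called in both comparisons for 23 genes. Osr1 (0.34, adjusted p = 0.14), Pcolce2 (0.36, 0.19) and Thy1 (-0.23, 0.29) were called only for transgenic vehicle, and Ly6a (-0.57, 0.04) only for JIB-04. That call of Ly6a was lost under 11 of 22 alternatives, among them no filter, equal totals, no term for day and leaving out either JIB-04 heart or any 1 wild type heart (adjusted p of up to 0.35). The difference between JIB-04 and vehicle itself passed the test for none of these 4 genes. Side by side, transgenic vehicle and JIB-04 hearts differed from wild type by 1.97 and 2.31 for Meox1, by 1.84 and 1.88 for Nox4, by 1.02 and 0.95 for Tcf21, by -1.70 and -1.63 for Htra1 and by -1.10 and -1.0 for Prrx1. Leaving out JIB-04 heart 1 left 14 of the 24 calls and leaving out heart 2 left 15, with 1 treated heart then assumed to vary like the other groups.

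Day of collection made little measurable difference. Between day 158 and day 125, 0 of 33 members passed the test, where 0.378% of all tested genes did (limma), and 5 members had an unadjusted p under 0.05. The lowest adjusted p was 0.079, for Mgp, with an estimate of -0.31 on the log2 scale. Wild type hearts 3 and 4 (day 158) had less Mgp than hearts 1 and 2 (day 125), and the same order held among transgenic vehicle hearts. The effect of the transgene did not differ detectably between the days for any member (0 of 33, against 0.00741% of all genes), and 3 members had an unadjusted p under 0.05 for that difference. For neither unadjusted count was the share of all tested genes taken. With 1 transgenic vehicle heart at day 125, this comparison could show large differences only.

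Other genes of resting fibroblasts, 20 listed genes that are not members, gave 9 rises and 1 fall between transgenic vehicle and wild type hearts, with a median difference of 0.44. Among all tested genes 20.3% were called higher and 15.7% lower. Mfap5, a microfibril protein, rose by 2.09 ± 0.16 (adjusted p = 6.9e-05), with 16.2, 10.3, 13 and 11.1 FPKM in the wild type hearts and 64.6, 57.5 and 45.2 in transgenic vehicle hearts. Apod, a lipid-binding lipocalin, rose by 1.63 ± 0.37 (adjusted p = 0.01). It lay between 3.29 and 4.73 FPKM in wild type hearts and at 8.41, 11.4 and 32.3 in transgenic vehicle hearts, with heart 3 well above the others. The chemokine Cxcl14 fell by 1.32 ± 0.33 (adjusted p = 0.015, and 0.075 without transgenic vehicle heart 1). Other genes of activated fibroblasts gave 16 rises and 0 falls of 21 tested, with a median of 1.66. Both lists were chosen with earlier results of these data known, so their counts are a description and no independent check. Comp, Ltbp2 and Lox of the other activated genes, and C7 of the other resting genes, passed the filter through transgenic hearts alone. Their selection favoured a rise. The largest rises were those of Comp, a cartilage oligomeric matrix protein (4.39 ± 0.17, adjusted p = 3.5e-06), Ctgf, a matricellular target of TGF-β (3.95 ± 0.20, 9.1e-06), and the ligand Tgfb3 (3.82 ± 0.18, 6.9e-06). For none of these genes did JIB-04 pass the test against transgenic vehicle. An unadjusted p under 0.05 was found for 4 of the 21 other activation genes, with no share of all tested genes counted at that level. Of those 21 estimates 19 lay above 0, with a median of 0.51 beside -0.01 over all tested genes, and for 5 genes both JIB-04 hearts lay above all transgenic vehicle hearts, against 5.55% of all genes. Transgenic vehicle heart 3 was the lowest vehicle heart for 15 of them, and without it 16 of 21 lay above 0, with a median of 0.22.

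Among PDGF and FGF ligands and receptors, through which fibroblasts are kept and made to divide, 3 rose and 2 fell of 11 tested. Over all tested genes 20.3% were called higher and 15.7% lower. Fgfr1 rose by 1.55 ± 0.13 (adjusted p = 9.7e-05). Pdgfc (0.95 ± 0.26, adjusted p = 0.022) and Fgfr2 (0.79 ± 0.24, 0.036) also rose, but both calls were lost without transgenic vehicle heart 1 (0.13 and 0.2), without heart 2 (0.064 and 0.097) and without further hearts in turn. Fgfr2 passed the filter through transgenic hearts alone. Pdgfrb, the PDGF receptor of pericytes and fibroblasts, fell by 0.35 ± 0.08 (adjusted p = 0.009), beside the small rise of Pdgfra. Of 22 tested regulators of fibroblast state 8 rose and 2 fell, beside the same shares of all tested genes. Scx, a tendon and fibroblast factor, rose by 2.59 ± 0.16 (adjusted p = 2.3e-05), the cardiac T-box factor Tbx20 by 1.06 ± 0.10 (0.00016), and Meox2, the paralog of Meox1, fell by 0.98 ± 0.11 (0.00045). Meox2 thus lay at 12.3, 14.5, 11.4 and 10.2 FPKM in the wild type hearts and 5.22, 6.14 and 5.22 in transgenic vehicle hearts, the opposite order to Meox1.

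Markers of other heart cells moved beside the fibroblast genes. Their counts between transgenic vehicle and wild type hearts stand beside 20.3% called higher and 15.7% called lower among all tested genes. The summed FPKM of the 17 resting genes ran from 982 to 1148 in wild type, from 1671 to 1869 in transgenic vehicle and from 1730.0 to 2086 in JIB-04 hearts. Gsn and Mgp dominate that sum, with means of 388 and 304 FPKM in wild type and 614 and 750 in transgenic vehicle hearts. It therefore does not show that the 17 genes rose together. For the 8 activation genes the summed FPKM ran from 62.0 to 78.4, 42.0 to 67.5 and 54.3 to 58.2, a sum that Htra1 dominates. Of 7 cardiomyocyte markers 4 fell and 0 rose, and their sum lay between 17190.0 and 20470.0 FPKM in the wild type and between 13120.0 and 15790.0 in transgenic vehicle hearts. Of 10 endothelial markers 6 fell, such as Tie1 (-0.95) and Cdh5 (-0.89), and Vwf rose (1.60). Their sum was 375 to 426 FPKM in the wild type and 284 to 409.8 in transgenic vehicle hearts. Of 8 pericyte and smooth muscle markers 4 fell and 2 rose, and their sum was 238 to 282 against 147 to 186 FPKM. None of 8 tested macrophage markers passed the test, with sums of 121 to 160.5 and 119 to 166 FPKM.

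Markers of epicardial, adipose and lymphoid cells were all too low to be tested, with sums of at most 2.75 FPKM in any heart, and 1 Schwann cell marker of 5 was tested and not called. Of 7 valve and tendon-like markers, 3 were tested and all 3 rose (Cytl1, Fmod and Sox9, the last not without transgenic vehicle heart 1, adjusted p = 0.053). The summed level of the 7 went from 7.67 to 8.83 FPKM in wild type to 27.2 to 46.6 in transgenic vehicle and 65.0 to 70.8 in JIB-04 hearts. The lowest vehicle sum was that of transgenic vehicle heart 3. Between JIB-04 and transgenic vehicle hearts 0 of the 3 tested genes passed the test. Acan, Hapln1 and Chad of that list stayed below 1 FPKM in every heart, and Tnmd was listed at 0 in all wild type hearts and in transgenic vehicle heart 3. The part of these shifts in the differences of the fibroblast genes was not tested. In the same hearts the resting genes did not share a direction: Mgp, Pi16 and Tcf21 rose while Scara5, Clec3b and Efemp1 fell.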

How the data were processed

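Messenger RNA of 9 hearts was measured by sequencing. Per the file headers, the authors deposited their values as log2 of FPKM, with a table for each heart. The constant added before taking the logarithm is not stated; since the lowest value of each table is exactly 0, it was taken as 1. The submitters' processing notes name STAR (2.7.1a), Picard, GATK (4.1.2), Cufflinks (2.2.1) and the GRCm38 build, not the step each tool did, and which annotation was used is not given in the sources used here. The library kit is non-directional, per the labels' protocols. Depth was estimated relative to wild type heart 1 from the steps between low values, as read totals are not in the tables.

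The filter kept 13487 genes that reach 1 FPKM in 2 or more hearts. limma (3.58.1, R 4.3.3) fitted log2(FPKM + 1) with a mean per group, a term for day and a trended variance (5 residual and 3.07 prior degrees of freedom). P-values are two-sided and Benjamini-Hochberg adjusted over all tested genes, with a threshold of 0.05. The fit was tested on simulated data.

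The members, gene lists and tests were chosen with earlier results of these data known. Values in every heart are given, within the resting, shared and activated genes, for up to 6 called members with the largest difference and up to 3 uncalled members with the highest level. For JIB-04 the 3 members with the smallest p in each direction are named, and of other lists up to 3 called genes by size of difference. Fap, Pdgfrb, the members given by range and the markers named as low were named outside this rule, after their values were seen.

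Alternatives were pseudocounts of 0.1 and 0.5, other filters and scalings, leaving out the day term, a block for replicate number, fitting the 2 compared groups alone, using day 158 alone, and omitting each heart in turn. A fit of protein-coding genes alone was chosen after seeing the data. Positions are on GRCm38, counted from 1.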

Additional observations from a re-analysis of the deposited data

Results flagged for a closer look

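In groups of 4 to 10 hearts, here the wild type group, a heart was singled out where its gap to the nearest other heart exceeded the 95% critical value of Dixon's test, as a share of the group's whole range. Over 34 genes this happened 3 times, and chance alone singles out about 1 group in 20. Pi16, a peptidase inhibitor of resting fibroblasts, was 29.8 FPKM in wild type heart 3 against 21.9 FPKM in the nearest other wild type heart (0.869 of the range). Htra1, the secreted protease, was 52.8 FPKM in the same heart against 64.9 FPKM in the nearest (0.832). Loxl3, of the lysyl oxidase family, was 1.33 FPKM in wild type heart 2 against 1.68 FPKM (0.926). In each case the transgenic hearts lay outside the wild type range, and the call against transgenic vehicle was kept without the heart in question.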

How the results depend on the processing

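Of 26 members called between transgenic vehicle and wild type hearts, 13 were called in day 158 hearts alone, and 20 to 26 when a heart was left out. Between JIB-04 and wild type hearts 24 were called, 8 in day 158 hearts alone, 14 with the replicate block and 14 to 25 when a heart was left out. These settings leave fewer hearts or degrees of freedom. With the replicate block 20 members were called between transgenic vehicle and wild type. The replicate numbers did not pair the hearts (correlations of -0.19 to 0.43 between hearts of the same number). Between JIB-04 and transgenic vehicle 0 members were called under every alternative run.

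The median difference between transgenic vehicle and wild type was 0.48 for resting genes and became 0.73 and 0.62 with pseudocounts of 0.1 and 0.5, 0.58 with equal totals, 0.46 with median of ratios and 0.44 with quantile normalization. For shared genes 0.45 became 0.67 with equal totals, and for activation genes 0.75 became 1.17 and 0.93 with pseudocounts of 0.1 and 0.5. The pseudocount acts on low genes by construction, and equal totals moved the median of all genes from 0.05 to 0.23.

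Uncalled differences that changed sign were those of Abca8a (-0.56 in day 158 hearts alone, -0.49 without transgenic vehicle heart 1 to 0.11 without heart 3) and Dpt (-0.20 in day 158 hearts alone, -0.12 without transgenic vehicle heart 1 to 0.26 without heart 3); the cause was not tested.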
